A study of Homo sapiens with 12 samples.

Results

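The genes described here are 9 genes of the NRF2 pathway and of the thioredoxin system, NFE2L2, KEAP1, NQO1, HMOX1, TXNRD1, TXN, SRXN1, PRDX1 and ME1. They were chosen by gene symbol from the table of counts, in which each has 1 entry, and are 9 of 23500 genes listed and of the 17162 genes tested. The question was whether an oxidative response at the level of these transcripts goes with growth in homocysteine medium. RNA was measured in 12 libraries of human cells, 3 in each of 4 groups, after 12 h of growth with L-methionine (+Met medium) or with its precursor L-homocysteine in its place (−Met+Hcy medium). HEK293T, an embryonic kidney line that carries the SV40 large T antigen, is methionine-dependent, and R1 is a methionine-independent clone derived from it. According to the study's methods, both media contained dialyzed serum, L-glutamine, L-cysteine and vitamin B12, so cysteine was supplied in every group. R1 is 1 clone, which means that a difference between R1 and HEK293T cells cannot be told apart from a difference between any clone and its parent population. The labels name the libraries R1 in their titles and give HEK293T as the cell line, and they do not say whether the 3 libraries of a group came from separate cultures, so the p-values measure the spread between these libraries, which may be technical.

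NRF2, encoded by NFE2L2, is a transcription factor that KEAP1 holds in the cytoplasm and passes to the ubiquitin ligase built on CUL3. When electrophiles or oxidants modify cysteines of KEAP1, NRF2 escapes degradation, pairs with a small MAF protein in the nucleus and activates genes that carry an antioxidant response element. Because this control acts on the NRF2 protein, the transcripts of NRF2 targets such as NQO1, HMOX1, TXNRD1, SRXN1, PRDX1 and ME1 are the usual readout of the pathway, whereas the NFE2L2 transcript need not move. Thioredoxin, encoded by TXN, reduces disulfides in peroxiredoxins and other proteins and is itself reduced by thioredoxin reductase 1, encoded by TXNRD1, with NADPH.

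The core of the antioxidant response element was searched for as TGACNNNGC on both strands of the RefSeq promoter windows of GRCh38.p14, which run from 250 bases before to 50 bases after a gene's start. Windows were given for 7 of the 9 genes (10 windows). The core was found in 4 of these windows, belonging to 3 genes (ME1, TXNRD1 and KEAP1), against 13.3% of all 35116 windows. Pieces around the matches that lie wholly before the start are shown here because these are the letters through which NRF2 targets are recognised, with 30 bases on either side of 1 match, every match within a piece in capitals, and each sequence on the strand of its gene, 5′ to 3′. The pieces lie at chr6:83431150-83431218 (minus strand) for ME1, at chr12:104215650-104215718 and chr12:104286900-104286968 (plus strand) for the 2 starts of TXNRD1, and at chr19:10502787-10502855 (minus strand) for KEAP1.
ME1: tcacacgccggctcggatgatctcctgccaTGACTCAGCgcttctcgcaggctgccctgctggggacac
TXNRD1, first start: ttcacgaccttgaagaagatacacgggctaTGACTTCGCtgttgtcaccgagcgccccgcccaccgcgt
TXNRD1, second start: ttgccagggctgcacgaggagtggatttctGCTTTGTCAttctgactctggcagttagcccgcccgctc
KEAP1: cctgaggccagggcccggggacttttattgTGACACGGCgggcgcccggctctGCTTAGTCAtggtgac
The match begins 137 bases before the start in ME1, 99 and 102 bases before it in the 2 windows of TXNRD1, and the 2 matches of KEAP1 begin 54 and 31 bases before it. The second TXNRD1 piece and the second match of KEAP1 hold the core as its reverse complement. A second match in ME1 and one in the first window of TXNRD1 reach or lie past the start and are not shown. A match describes the letters of the window and is no evidence of binding in these cells. The windows of NFE2L2, NQO1, TXN and SRXN1 held no match, and HMOX1 and PRDX1 had no window. An element outside a window would not be found by this search, so the lack of a match does not show that a gene lacks the element.

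Library totals lay between 12664158 and 18771349 counts. R1 −Met+Hcy replicate 3 stood apart from the other libraries. Its average chi-square per gene against the other 2 libraries of its group was 213.8 and 245.4, whereas it was 7.371 to 94.57 between all other pairs within a group. The common dispersion, a measure of the spread between libraries, was 0.109 with this library and 0.0349 without it, so results are given with all libraries and without it. Levels are given as CPM, the counts of a gene scaled to the column total of its library, and fold changes come from counts scaled by TMM, which sets the bulk of genes level between libraries. The TMM factors were 0.828 to 0.882 in HEK293T +Met and 0.930 to 1.12 in the other groups. As a consequence, with column totals alone the median gene lay 0.33 (log2) higher in −Met+Hcy than in +Met in HEK293T cells, and 0.37 higher in R1 than in HEK293T cells in +Met, against 0.03 and 0.02 with TMM. The HEK293T markers NEFL, NEFM and VIM had counts in every library, whereas KRT5, KRT14 and LYZ, markers of other cell types, were at 0 counts in all 12. Of the other markers of this kind, COL1A1 reached 8.22 to 39.8 CPM and the rest stayed under 1 CPM.

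**Figure D1:**
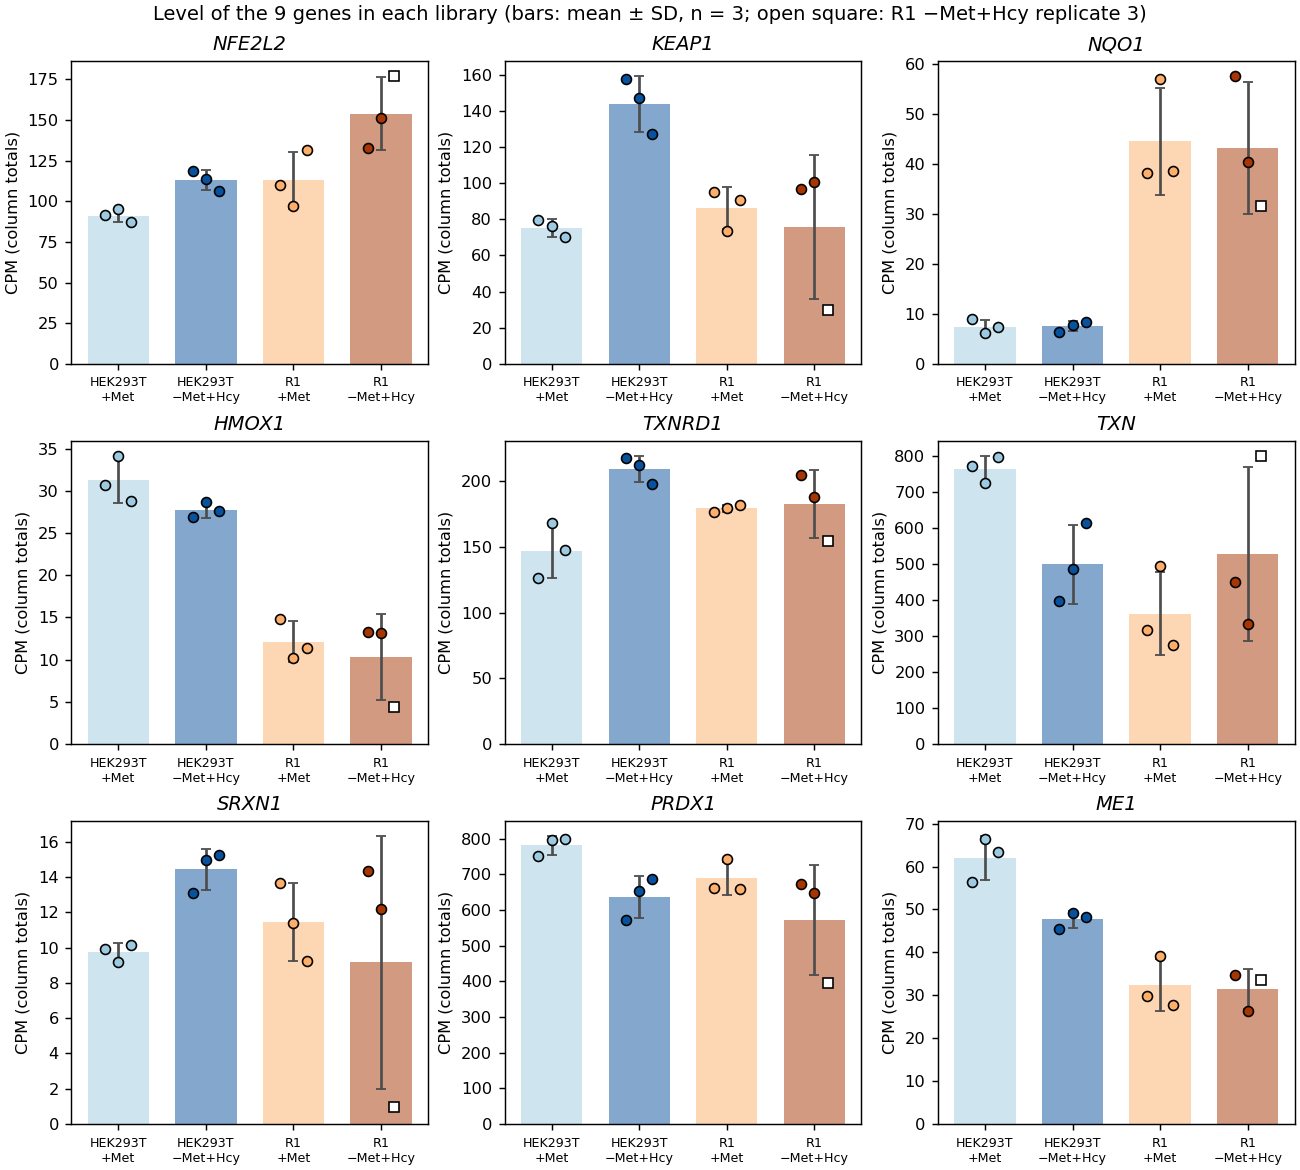
Level of each of the 9 genes in CPM of column totals (linear vertical axes that start at 0) in the 4 groups, with 1 point per library, bars at the mean and error bars of 1 SD (n = 3). NQO1 was at 6.16 to 8.89 CPM in the 6 HEK293T libraries and at 31.6 to 57.7 CPM in the 6 R1 libraries, and the open square, R1 −Met+Hcy replicate 3, lay outside the other 2 libraries of its group for 8 of the 9 genes.

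Per kilobase of the canonical transcript, thioredoxin and peroxiredoxin 1 were by far the most abundant of the 9 transcripts. The mean over the 4 groups was 731 CPM per kilobase for TXN and 709 for PRDX1, a peroxidase that uses thioredoxin to reduce hydrogen peroxide. Their ranges over the groups, 491 to 1038 and 605 to 827, overlap, so their order is not fixed. The next 3, NFE2L2 at 48.1, TXNRD1 at 46.6 and KEAP1 at 37.2 CPM per kilobase, overlapped likewise. HMOX1, which encodes the heme-degrading enzyme heme oxygenase 1, had 13.1, ME1, the cytosolic malic enzyme that yields NADPH, 13.0, NQO1, a quinone reductase, 10.2, and SRXN1, which restores overoxidized peroxiredoxins, 4.43 CPM per kilobase. NQO1 had the widest range over the groups for its level, 2.95 to 17.7 CPM per kilobase. TXN and PRDX1 have 7 and 1 annotated pseudogenes, none of which has an entry in the table, so reads of these copies could have been counted under the parent gene.

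In HEK293T cells, none of the 9 genes passed the test between the media with all 12 libraries. Without R1 −Met+Hcy replicate 3, KEAP1, the inhibitor of NRF2, rose 1.56-fold, and 4 genes fell, namely TXN 1.87-fold, ME1 1.59-fold, PRDX1 1.50-fold and HMOX1 1.38-fold. The library left out is not part of this comparison, and the fold changes were the same to 2 decimals with and without it. In bulk RNA, less of a transcript in every cell and fewer cells that hold it cannot be told apart.

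Counts were tested in edgeR by quasi-likelihood, p-values were adjusted by the Benjamini-Hochberg method over every gene tested, and genes with an adjusted p under 0.05 passed. With all 12 libraries 4.25% of the genes tested were higher and 2.78% lower by this rule, and 3 of the 9 genes (TXN, PRDX1 and ME1, all lower) had an unadjusted p under 0.05. DESeq2 called 2 of them, PRDX1 and ME1. The share of all genes was not counted at the unadjusted p or for DESeq2, so these numbers have no background. Without R1 −Met+Hcy replicate 3 the background was 15.2% higher and 12.5% lower, against 1 and 4 of the 9 genes. The same 5 genes passed in a fit of the 6 HEK293T libraries alone, for which no share of all genes was counted. The median log2 fold change of the 9 genes was −0.28, against 0.03 over all genes tested.

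KEAP1 was at 79.8, 76.2 and 70.0 CPM in the 3 HEK293T +Met libraries and at 158, 147 and 127 CPM in the 3 −Met+Hcy libraries. All 3 libraries in −Met+Hcy were thus above all 3 in +Met, also after TMM scaling. This was a log2 fold change of 0.64 ± 0.30 (SE) with an edgeR adjusted p of 0.241, and 0.64 ± 0.13 with an adjusted p of 0.00302 without R1 −Met+Hcy replicate 3. With the GC and length trend of each library removed, it was 0.76 (edgeR adjusted p 0.000623).

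Among the proteins of the thioredoxin cycle, TXN was at 773, 725 and 797 CPM in +Met and at 397, 486 and 613 CPM in −Met+Hcy. The groups did not overlap, and the spread in −Met+Hcy (SD 109) was wider than in +Met (SD 36.6). The log2 fold change of TXN was −0.90 ± 0.37, with an edgeR adjusted p of 0.168 with all libraries and of 0.0175 without R1 −Met+Hcy replicate 3. It was smaller, −0.65, with the GC and length trend of each library removed (edgeR adjusted p 0.00194).

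PRDX1 was at 751, 796 and 798 CPM in +Met and at 572, 653 and 687 CPM in −Met+Hcy, with every −Met+Hcy library below every +Met library. Its log2 fold change was −0.58 ± 0.19, with an edgeR adjusted p of 0.0843 with all libraries and of 0.00860 without R1 −Met+Hcy replicate 3. With the GC and length trend removed, the log2 fold change of PRDX1 was −0.40 (edgeR adjusted p 0.198). It was −0.41 (edgeR adjusted p 0.00956) with R1 −Met+Hcy replicate 3 also left out. TXNRD1 moved less: its mean was 147 ± 21.1 CPM (SD, n = 3) in +Met and 210 ± 10.1 CPM in −Met+Hcy, and on the TMM scale its log2 fold change was 0.22 (95% interval −0.11 to 0.54), which did not pass with or without that library, although every −Met+Hcy library lay above every +Met library on both scales. SRXN1 was at 9.18 to 10.2 CPM in +Met and at 13.1 to 15.3 CPM in −Met+Hcy. Its log2 fold change on the TMM scale was 0.27 (95% interval −0.97 to 1.52), which did not pass in either fit. Over the alternatives run, none of which gave a call, the log2 fold change ran from 0.13 to 0.51 for TXNRD1 and from 0.20 to 0.57 for SRXN1.

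Of the other enzymes, ME1 was at 56.3, 66.4 and 63.4 CPM in +Met and at 45.5, 49.2 and 48.3 CPM in −Met+Hcy. The groups were separate, with a log2 fold change of −0.67 ± 0.21 and an edgeR adjusted p of 0.0738 with all libraries and of 0.00991 without R1 −Met+Hcy replicate 3. With the GC and length trend removed, the log2 fold change of ME1 was −0.70 (edgeR adjusted p 0.00324). ME1 also passed when R1 +Met replicate 2 was left out (adjusted p 0.0494).

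HMOX1 was at 30.7, 34.2 and 28.8 CPM in +Met and at 26.9, 28.7 and 27.6 CPM in −Met+Hcy. The highest value in −Met+Hcy was just below the lowest in +Met. On the TMM scale the log2 fold change was −0.46 ± 0.30, with an edgeR adjusted p of 0.384 with all libraries and of 0.0283 without R1 −Met+Hcy replicate 3, and it was −0.28 with the GC and length trend of each library removed, which did not pass.

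NQO1, a widely used marker of NRF2 activity, was at 8.89, 6.16 and 7.28 CPM in +Met and at 6.38, 7.81 and 8.42 CPM in −Met+Hcy. The groups overlapped, and the log2 fold change was −0.28 (95% interval −0.86 to 0.31). NFE2L2 itself was at 87.3 to 95.1 CPM in +Met and at 107 to 119 CPM in −Met+Hcy, which on the TMM scale was a log2 fold change of 0.01 (95% interval −0.40 to 0.43). With column totals in place of TMM, the log2 fold change of NFE2L2 was 0.31, that of NQO1 changed sign to 0.02, and those of the other 7 genes kept their sign. On the TMM scale the HEK293T groups did not overlap for 2 genes that were higher and 4 that were lower in −Met+Hcy, where 24.7% and 20.6% of all genes tested did not overlap in these directions.

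**Figure D2:**
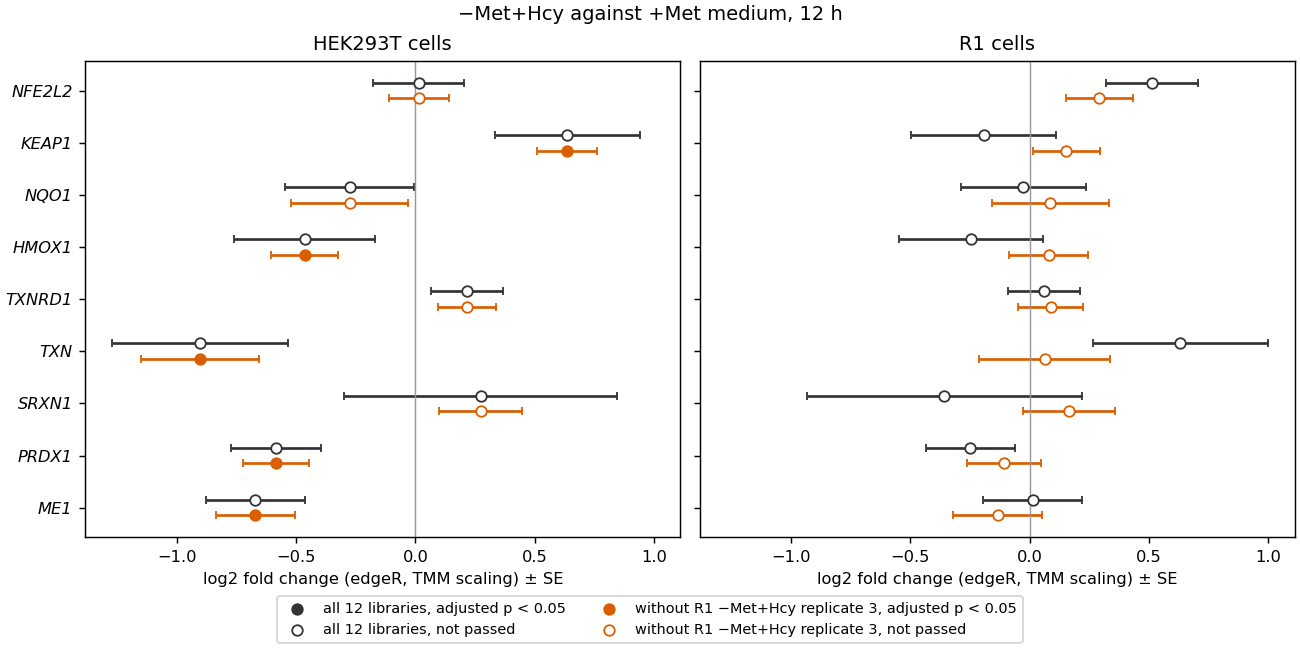
Log2 fold change of each gene in −Met+Hcy against +Met medium in HEK293T cells (left) and R1 cells (right) on 1 linear axis, with bars of 1 SE, for the fit of all 12 libraries (black) and the fit without R1 −Met+Hcy replicate 3 (orange), and filled points where the adjusted p is under 0.05. In HEK293T cells 5 genes passed without that library (KEAP1 higher, HMOX1, TXN, PRDX1 and ME1 lower) and none with it, and in R1 cells none passed in either fit.

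In R1 cells, none of the 9 genes passed the test between the media. With all 12 libraries the log2 fold changes ran from −0.36 (SRXN1) to 0.63 (TXN), and without R1 −Met+Hcy replicate 3 they ran from −0.13 (ME1) to 0.29 (NFE2L2). Few genes of any kind passed in R1 cells: 0.00583% of the genes tested were higher and 0.0% lower, and 0.0176% and 0.0% without that library, so that the count of 0 of 9 lies at the background. NFE2L2 alone had an unadjusted p under 0.05 (edgeR adjusted p 0.622), and DESeq2 called none. No share of all genes was counted for either rule.

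NFE2L2 was at 110, 97.1 and 132 CPM in R1 +Met and at 133, 151 and 177 CPM in R1 −Met+Hcy. Its log2 fold change was 0.51 ± 0.19 with all libraries and 0.29 ± 0.14 without replicate 3, the highest of the 3. NQO1 was at 38.2, 57.0 and 38.5 CPM in R1 +Met and at 57.7, 40.3 and 31.6 CPM in −Met+Hcy. These groups overlapped fully, with a log2 fold change of −0.03 (95% interval −0.59 to 0.54).

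For several genes the mean of R1 −Met+Hcy was set by replicate 3. TXN was at 451, 334 and 800.3 CPM in the 3 libraries, KEAP1 at 96.7, 100.6 and 29.7, HMOX1 at 13.3, 13.1 and 4.37, SRXN1 at 14.4, 12.2 and 0.959, and PRDX1 at 672, 648 and 395 CPM. The log2 fold change of TXN fell from 0.63 to 0.06 without it, and those of KEAP1, HMOX1, SRXN1 and NQO1 changed from negative to positive while staying short of the threshold (0.15, 0.08, 0.16 and 0.09). The distance of replicate 3 from the mean of replicates 1 and 2 went with the GC content of the transcripts, as it was 1.31 (log2) higher for TXN, with 36.8% GC, and 1.46 lower for KEAP1, with 60.2% GC. SRXN1, with 51.7% GC, was farther off, at 3.37 lower. The part of GC content in the value of each gene was not tested. On the TMM scale the R1 groups overlapped for all 9 genes, where 4.89% of all genes tested were higher and 5.72% lower without overlap.

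**Figure D3:**
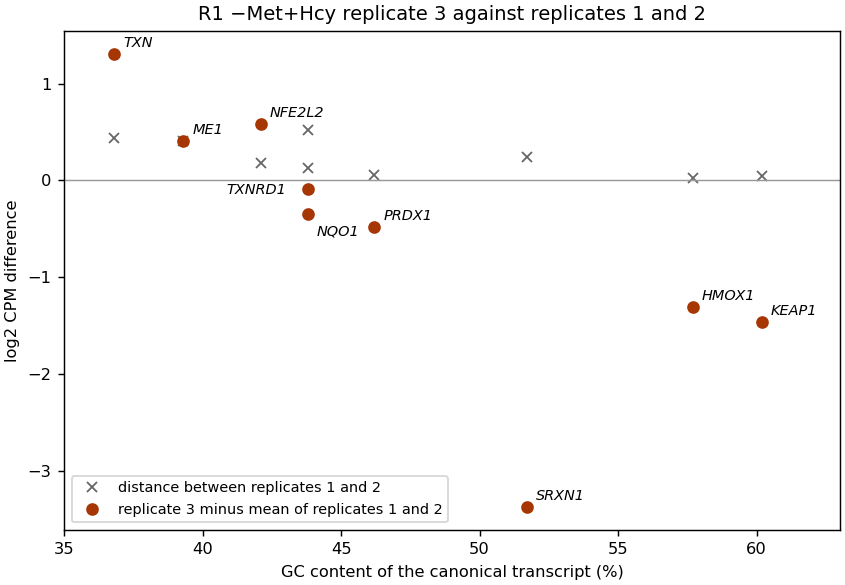
Distance of R1 −Met+Hcy replicate 3 from the mean of replicates 1 and 2 in log2 CPM (filled points) against the GC content of the canonical transcript in percent, with the distance between replicates 1 and 2 as crosses, for the 9 genes. The distance ran from 1.31 for TXN to −1.46 for KEAP1, with SRXN1 at −3.37, whereas replicates 1 and 2 lay 0.02 to 0.52 apart.

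The contrast of the 2 medium responses (R1 minus HEK293T) passed for none of the 9 genes, with or without R1 −Met+Hcy replicate 3. TXN had the largest difference, 1.53 ± 0.52 (log2) with an edgeR adjusted p of 0.377, and 0.97 ± 0.37 with an adjusted p of 0.206 without that library. KEAP1 followed with −0.83 ± 0.43, or −0.48 ± 0.19 without it. With the GC and length trend of each library removed, the difference passed for TXN (0.77, adjusted p 0.0380), and with that library also left out for TXN (0.75, adjusted p 0.00962) and KEAP1 (−0.58, adjusted p 0.0243). Over all genes tested 0.0% passed as higher and 0.0583% as lower with all 12 libraries, and 0.398% and 1.28% without that library. TXN and ME1 had an unadjusted p under 0.05, and DESeq2 called none of the 9 genes. No share of all genes was counted with the trend removed, at the unadjusted p or for DESeq2. A different response of the 2 lines was therefore not shown by the calls in HEK293T cells.

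Between the lines, the largest fold changes of the 9 genes were found, and NQO1 and HMOX1 passed in both media. In +Met medium, R1 cells had 4.69-fold more NQO1 transcript than HEK293T cells, while HMOX1 was 3.29-fold, TXN 2.69-fold and ME1 2.44-fold lower. In −Met+Hcy medium NQO1 was 5.57-fold higher and HMOX1 2.83-fold and KEAP1 1.99-fold lower in R1 cells. NQO1 and HMOX1, both established NRF2 targets, thus differed in opposite directions between the same cells.

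In +Met, 1 of the 9 genes was higher and 3 lower, against 5.69% and 4.48% of all genes tested, and without R1 −Met+Hcy replicate 3 the counts were 1 and 4, with PRDX1 (1.45-fold lower) added, against 17.0% and 15.7%. With the GC and length trend removed, the log2 fold change of PRDX1 in +Met was −0.01 (adjusted p 0.987, and 0.971 with that library also left out), against −0.53. In −Met+Hcy, 1 gene was higher and 2 lower, against 7.2% and 6.76%, and without that library 1 and 3, with ME1 (1.68-fold lower) added, against 15.7% and 14.6%. On the TMM scale the lines did not overlap for 1 gene higher and 4 lower in +Met, where 22.2% and 20.7% of all genes did not, and for 2 higher and 4 lower in −Met+Hcy, where 13.6% and 18.9% did not.

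NQO1 in the 3 R1 +Met libraries, at 38.2, 57.0 and 38.5 CPM, lay above each of the HEK293T +Met libraries, of which the highest was 8.89 CPM. Its log2 fold change was 2.23 ± 0.28 with an edgeR adjusted p of 0.000647 in +Met, and 2.48 ± 0.28 with an adjusted p of 0.000272 in −Met+Hcy. NQO1 passed in both media under all 22 alternatives run.

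HMOX1 was at 14.8, 10.2 and 11.4 CPM in R1 +Met and at 13.3, 13.1 and 4.37 CPM in R1 −Met+Hcy, against 26.9 to 34.2 CPM in the 6 HEK293T libraries. The lines did not overlap in either medium. Fitted log2 fold changes were −1.72 ± 0.31 with an edgeR adjusted p of 0.00486 in +Met and −1.50 ± 0.30 with an adjusted p of 0.00708 in −Met+Hcy, or −1.17 ± 0.17 with an adjusted p of 0.000273 without R1 −Met+Hcy replicate 3. In edgeR on the 6 libraries of the −Met+Hcy comparison alone, HMOX1 did not pass (adjusted p 0.0876).

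ME1 was at 29.9, 39.2 and 27.8 CPM in R1 +Met and at 34.7, 26.2 and 33.5 CPM in R1 −Met+Hcy. All 6 values lay below the lowest HEK293T library, 45.5 CPM. This gave a log2 fold change of −1.29 ± 0.21 with an edgeR adjusted p of 0.00289 in +Met, and −0.61 ± 0.21 with an adjusted p of 0.0724 in −Met+Hcy (0.0103 without R1 −Met+Hcy replicate 3).

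TXN was at 316, 494 and 276 CPM in R1 +Met, each below the lowest HEK293T +Met library, 725 CPM. Its log2 fold change was −1.43 ± 0.37 with an edgeR adjusted p of 0.0307. This call rested on few libraries: it was lost when any 1 of HEK293T +Met replicates 1, 2 and 3, HEK293T −Met+Hcy replicate 2 or R1 +Met replicates 1 and 3 was left out, with adjusted p-values of 0.0910, 0.0680, 0.0992, 0.0509, 0.135 and 0.135, and with the GC and length trend removed the log2 fold change was −0.61 (adjusted p 0.00277). In −Met+Hcy the lines overlapped for TXN, with a log2 fold change of 0.11 with all libraries and −0.46 without R1 −Met+Hcy replicate 3, neither of which passed.

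KEAP1 in −Met+Hcy was at 96.7, 100.6 and 29.7 CPM in R1 and at 158, 147 and 127 CPM in HEK293T cells, with no overlap. The log2 fold change was −0.99 ± 0.31 with an edgeR adjusted p of 0.0495, and −0.64 ± 0.14 with an adjusted p of 0.00511 without R1 −Met+Hcy replicate 3. KEAP1 passed in 9 of 22 alternatives, and not when any 1 of the 9 libraries outside the R1 −Met+Hcy group was left out. In +Met the lines overlapped for KEAP1. PRDX1 in +Met was at 663, 743 and 659.6 CPM in R1, all below the 751 to 798 CPM of HEK293T cells, and with all libraries did not pass (log2 fold change −0.53 ± 0.19, adjusted p 0.0926). NFE2L2, SRXN1 and TXNRD1 did not pass in either medium. In +Met the log2 fold changes of KEAP1, NFE2L2, SRXN1 and TXNRD1, none of which passed, were −0.16 to −0.05 with TMM and 0.20 to 0.31 with column totals, so no direction can be given for them.

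**Figure D4:**
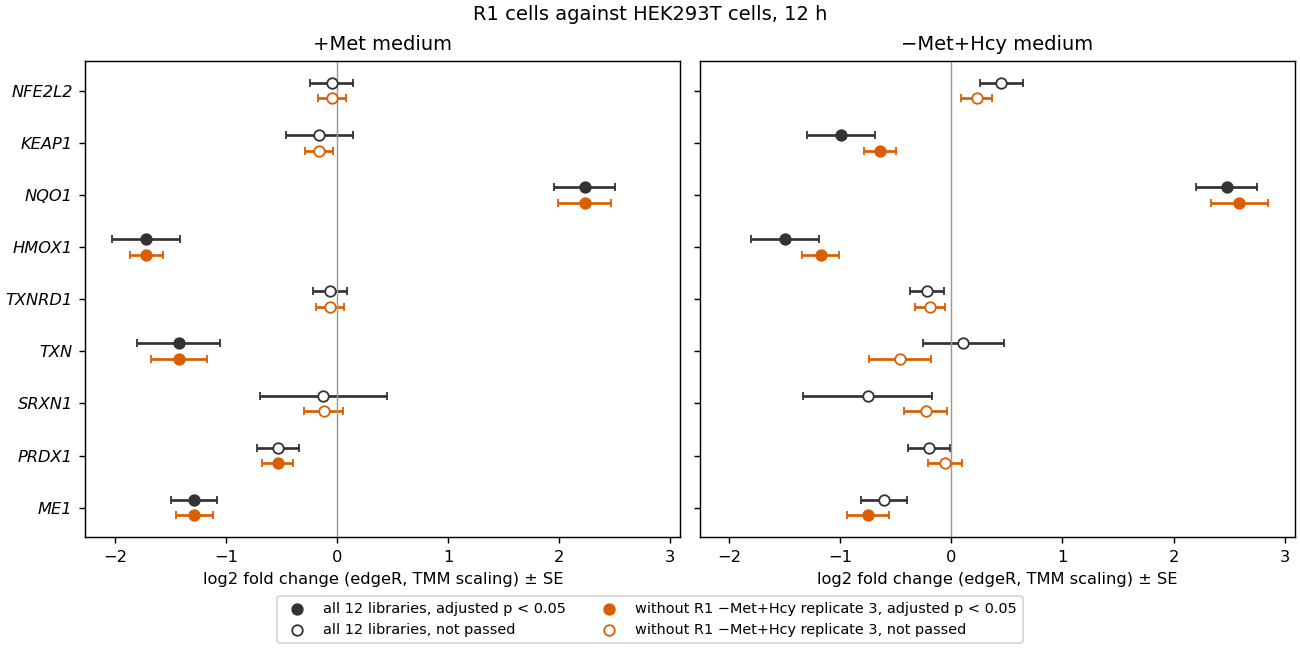
Log2 fold change of each gene in R1 against HEK293T cells in +Met (left) and −Met+Hcy medium (right) on 1 linear axis, with bars of 1 SE, for the fit of all 12 libraries (black) and the fit without R1 −Met+Hcy replicate 3 (orange), and filled points where the adjusted p is under 0.05. NQO1 was higher in R1 in both media (2.23 and 2.48) and HMOX1 lower in both (−1.72 and −1.50).

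Other genes of the pathway were followed in 5 lists, of NRF2 regulators and partners, other NRF2 targets, other thioredoxin-family genes (thioredoxins and their inhibitor, peroxiredoxins, glutaredoxins, sestrins and methionine sulfoxide reductases), other antioxidant enzymes, and, for comparison, genes of the amino acid response. In HEK293T cells in −Met+Hcy medium, of 30 other NRF2 targets tested, 1 rose and 4 fell with all 12 libraries, and 2 rose and 11 fell without R1 −Met+Hcy replicate 3, with a median log2 fold change of −0.30 against 0.03 over all genes. Over all genes tested, the shares that rose and fell were 4.25% and 2.78% with all 12 libraries and 15.2% and 12.5% without that library. The shares given for the lists are from edgeR at the adjusted p. None was counted for DESeq2 or for the unadjusted p.

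The target that rose in both fits was SLC7A11, which encodes the cystine transporter and is also a target of ATF4, the factor of the amino acid response. It was at 10.6, 26.6 and 18.3 CPM in +Met and at 161, 159 and 148 CPM in −Met+Hcy, with a log2 fold change of 2.79 ± 0.27 (edgeR adjusted p 0.000459). Without R1 −Met+Hcy replicate 3, ALDH3A1 also rose, by 2.14 (edgeR adjusted p 0.0268, and 0.254 with all libraries). Its level was low, at 0.313, 0.137 and 0.857 CPM in +Met and at 1.89, 2.59 and 2.76 CPM in −Met+Hcy. With all 12 libraries 4 targets fell. These 4 were PIR, a nuclear iron-binding protein (−1.39), GCLM, the modifier subunit of the enzyme that starts glutathione synthesis (−0.95), TALDO1, of the pentose phosphate pathway (−0.92), and GSR, glutathione reductase (−0.65). GCLM was at 35.5, 45.1 and 41.7 CPM in +Met and at 25.7, 25.4 and 26.5 CPM in −Met+Hcy, with no overlap. The call of PIR was lost when any 1 HEK293T library other than +Met replicate 2 was left out (adjusted p 0.0526 to 0.0689).

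Among 11 regulators and partners of NRF2, 2 rose and 1 fell, against 4.25% and 2.78% of all genes. BACH1, a repressor that competes with NRF2 at antioxidant response elements, was at 16.7, 24.0 and 21.9 CPM in +Met and at 61.8, 54.2 and 51.4 CPM in −Met+Hcy, with a log2 fold change of 1.13 ± 0.25 (edgeR adjusted p 0.0209, and 0.0580 to 0.108 when any 1 of the 6 HEK293T libraries was left out). NFE2L3, a relative of NRF2, rose by 0.65, and SQSTM1, the autophagy receptor that binds KEAP1 and is itself an NRF2 target, had a log2 fold change of −0.80. Without R1 −Met+Hcy replicate 3, 3 regulators rose and 1 fell, against 15.2% and 12.5% of all genes.

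Of 22 other thioredoxin-family genes, 2 rose and none fell with all libraries, against 4.25% and 2.78% of all genes. In the fit without R1 −Met+Hcy replicate 3, 2 rose and 4 fell, against 15.2% and 12.5% of all genes. TXNIP, which binds and inhibits thioredoxin, was at 12.1, 12.3 and 10.3 CPM in HEK293T +Met and at 67.6, 66.9 and 69.2 CPM in −Met+Hcy, with a log2 fold change of 2.26 ± 0.24 (edgeR adjusted p 0.000537). SESN2, a leucine sensor upstream of mTORC1 and a known target of ATF4, was at 9.45, 13.2 and 11.5 CPM in +Met and at 107, 91.2 and 79.6 CPM in −Met+Hcy, with a log2 fold change of 2.73 ± 0.27 (adjusted p 0.000502). These 2 increases stood beside TXN and PRDX1, whose levels were lower in −Met+Hcy in each of the 3 libraries.

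None of 13 other antioxidant enzymes passed with all libraries, among which MGST1, a microsomal glutathione transferase, had the largest change by the rule used (−1.06, edgeR adjusted p 0.105). Of these, 4 had an unadjusted p under 0.05, DESeq2 called MGST1 alone, and without R1 −Met+Hcy replicate 3 none rose and 4 fell, against 15.2% and 12.5% of all genes. In the comparison list, 10 of 14 genes of the amino acid response rose and none fell, against 4.25% and 2.78% of all genes. Their median log2 fold change was 1.48. Without that library 13 rose and none fell, against 15.2% and 12.5% of all genes. CHAC1, which degrades glutathione, had the largest change, 4.68 ± 0.50 (adjusted p 0.000537), and ASNS, asparagine synthetase, rose by 1.32.

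In R1 cells no gene of the 5 lists passed with all 12 libraries. An unadjusted p under 0.05 was found for 13, and DESeq2 called SLC7A11, CHAC1 and CEBPG. The share of all genes in R1 cells was not counted for the unadjusted p or DESeq2, so these numbers have no background. Without R1 −Met+Hcy replicate 3, 1 gene of the amino acid list, CHAC1, passed, with a log2 fold change of 2.56, against 2.11 with all libraries. SLC7A11 was at 8.58, 8.04 and 7.82 CPM in R1 +Met and at 26.4, 25.2 and 16.2 CPM in R1 −Met+Hcy, a log2 fold change of 1.49 ± 0.27 that did not pass (edgeR adjusted p 0.622). The contrast of the responses passed for SESN2 alone among the 93 genes of the lists, at −2.49 ± 0.37 (adjusted p 0.0460), a call lost when any 1 library other than R1 −Met+Hcy replicates 2 and 3 was left out (adjusted p 0.0882 to 0.219). Without R1 −Met+Hcy replicate 3 it passed also for TXNIP, at −1.45 (adjusted p 0.00415), among the thioredoxin-family genes, and for 6 amino acid response genes.

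**Figure D5:**
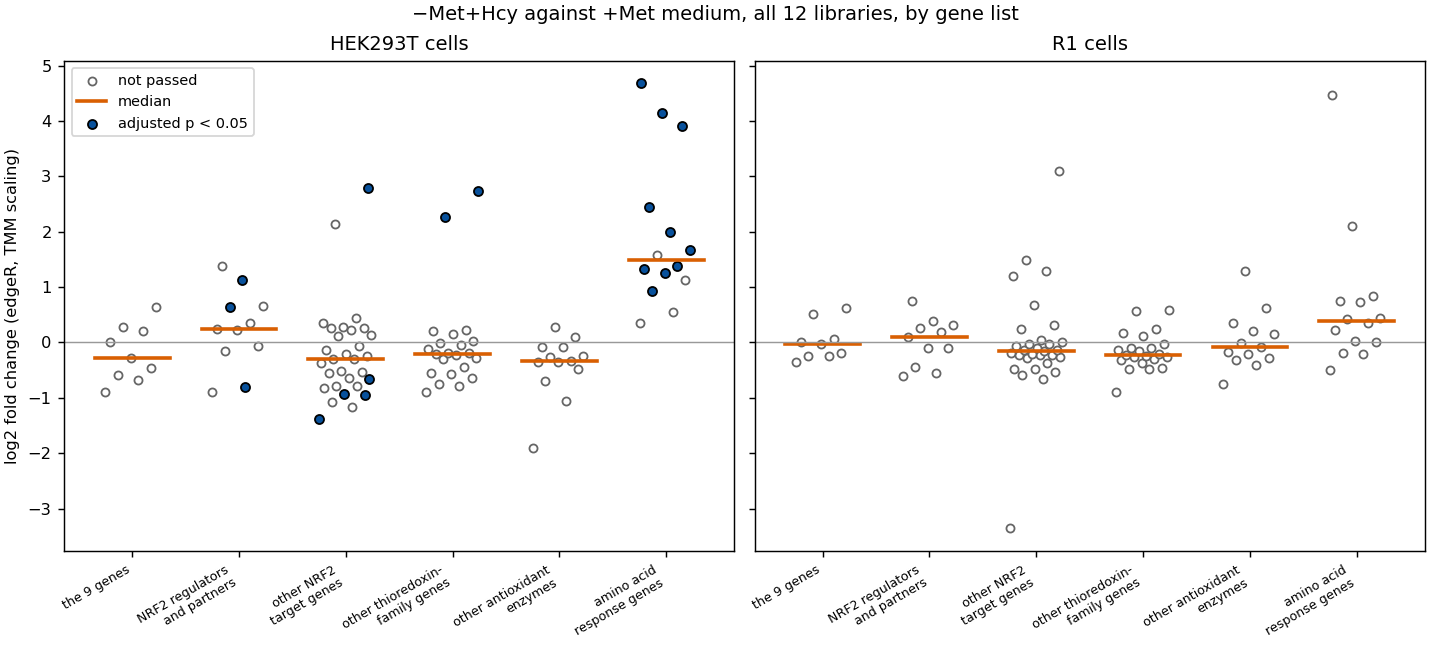
Log2 fold change of the genes of each list in −Met+Hcy against +Met medium in HEK293T (left) and R1 cells (right), with 1 point per gene, filled where the adjusted p is under 0.05, and a line at the median of the list, for the fit of all 12 libraries. In HEK293T cells the median was 1.48 for the amino acid response genes and −0.30 for the other NRF2 targets, and in R1 cells no gene passed.

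Between the lines, other NRF2 targets differed in both directions, as NQO1 and HMOX1 did. In +Met, 3 of 30 were higher and 3 lower in R1 cells (4 and 7 without R1 −Met+Hcy replicate 3), and in −Met+Hcy 6 were higher and 4 lower (8 and 5 without it). Over all genes the shares were 5.69% and 4.48% in +Met (17.0% and 15.7% without that library) and 7.2% and 6.76% in −Met+Hcy (15.7% and 14.6%). BLVRA, biliverdin reductase A, which acts on the product of heme oxygenase, was at 21.3, 14.9 and 18.4 CPM in HEK293T +Met and at 60.5, 49.4 and 63.9 CPM in R1 +Met (log2 fold change 1.31 ± 0.20, edgeR adjusted p 0.00230). It was thus higher in the line in which HMOX1 was lower.

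CBR3, a carbonyl reductase, was also higher in R1 in +Met (1.76 ± 0.35), and ABCC2, an efflux pump for conjugates, was lower (−2.52 ± 0.35), as was SLC7A11 (−1.52 ± 0.27). In −Met+Hcy, BLVRA (1.77), PIR (1.57) and CBR3 (1.38) were higher, and SLC7A11 (−2.82) and ABCC2 (−1.94) lower, in R1 cells. Of the thioredoxin family, TXNRD3, MSRB2 and SESN3 were higher in R1 in +Met, with log2 fold changes of 1.06, 1.03 and 1.08. In that medium 3 of the 22 were higher and none lower with all 12 libraries, 4 higher and 2 lower with DESeq2, and 9 higher and 7 lower without R1 −Met+Hcy replicate 3. In −Met+Hcy, SESN2 (−1.90), TXNIP (−1.30) and GLRX5 (−1.08) were lower and MSRB2 (1.24) and SESN3 (1.14) higher, and without that library 6 of the 22 were higher and 3 lower. Over all genes, edgeR called 5.69% higher and 4.48% lower in +Met (17.0% and 15.7% without that library). For −Met+Hcy the shares were 7.2% and 6.76% (15.7% and 14.6%). With all 12 libraries the list of regulators held no call in +Met (1 at an unadjusted p under 0.05, none with DESeq2) and 1 in −Met+Hcy, SQSTM1, with a log2 fold change of 0.84. When R1 −Met+Hcy replicate 3 was left out, NFE2L1 and SQSTM1 were higher in R1 in +Met (edgeR adjusted p 0.0467 and 0.0174), and in −Met+Hcy SQSTM1 was higher and BACH1 lower (0.00351). Calls were lost for TXNRD3 in +Met when any 1 of HEK293T +Met replicates 1 to 3, HEK293T −Met+Hcy replicates 1 and 2 or R1 +Met replicates 1 and 3 was left out, and for CBR3 in +Met without HEK293T +Met replicate 3. In −Met+Hcy they were lost for CBR3 without HEK293T −Met+Hcy replicate 1 or 2 or R1 −Met+Hcy replicate 1, and for GLRX5 and SQSTM1 without HEK293T −Met+Hcy replicate 2 or 3.

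The other antioxidant enzymes held 1 gene that was higher in R1 in +Met, GPX3 (1.29), and 3 that were lower, among them MGST1 (−1.29) and GPX4 (−1.12), which reduces lipid hydroperoxides. The calls of GPX3 and MGST1 were lost when any 1 HEK293T library or R1 +Met replicate 1 or 3 was left out, and that of GPX3 also without R1 +Met replicate 2 or R1 −Met+Hcy replicate 1. In +Met the list held 1 higher and 5 lower when R1 −Met+Hcy replicate 3 was left out. In −Met+Hcy none was higher and 2 were lower with all 12 libraries, 1 higher and 2 lower with DESeq2, and 2 higher and 3 lower without that library. Of the 14 amino acid response genes, 1 was higher and 6 lower in R1 in +Met (3 and 10 without that library), and none was higher and 10 lower in −Met+Hcy (0 and 12). In the edgeR fits, 5.69% of all genes were higher and 4.48% lower in +Met (17.0% and 15.7% without that library). The shares in −Met+Hcy were 7.2% and 6.76% (15.7% and 14.6%).

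The genes whose log2 CPM was most like that of a member were found by Pearson correlation, as a description over 12 libraries that fall into 4 groups. For NQO1 these were CRABP2 (r = 0.991), which carries retinoic acid, DHRS3 (0.982), a retinal reductase, and HSPB1 (0.978), a small heat shock protein. Over the 11 libraries without R1 −Met+Hcy replicate 3, CRABP2 was again first, at 0.992. EEF1E1, a component of the multi-tRNA synthetase complex, was first for ME1 in both (0.994 and 0.996), and ZBTB9 was first for KEAP1 in both (0.994 and 0.992).

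PRDX1 went with RPL7A (0.990) and SLC25A3 (0.983) over 12 libraries. For TXN the nearest genes were EIF2A, SNRPG and PFDN4 over 12 libraries (0.980 to 0.988) and RPL9, RPL31 and RPL32 over 11 (0.992 to 0.994), with none shared. HMOX1 shared none of its 3 nearest genes between the 2 sets of libraries either. No member was among the candidates, and library, depth and base composition are shared by all these values.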

How the data were processed

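Total RNA of 12 libraries was sequenced. The authors quantified the reads with kallisto 0.48.0 against GRCh38, and they deposited estimated counts, summed per Ensembl gene and given as whole numbers without scaling. Depth was 12664158 to 18771349 counts per library, and error bars cover the spread between libraries only. CPM was computed from column sums. Genes with a summed count under 10 were excluded, and 17162 of 23500 were tested with edgeR 4.0.16 in R 4.3.3 (TMM scaling, quasi-likelihood, a mean for each of the 4 groups, 8 residual degrees of freedom), with p-values adjusted by the Benjamini-Hochberg method over every gene tested and a threshold of 0.05. The study used DESeq2, which was run here (1.42.0) as an alternative. The other alternatives were edgeR on the libraries of the comparison, RLE scaling, filterByExpr, no filter, a replicate block, robust spread, an added threshold of 1 on the absolute log2 fold change, removal of each library's trend on GC content and transcript length (loess, span 0.3) with and without R1 −Met+Hcy replicate 3, and each library left out. Column totals without a scaling factor were added after the data were seen. Transcript length and GC content come from the GENCODE annotation of GRCh38. The fits were tested on simulated counts with 200 changed genes, with the spread between libraries taken from the data without R1 −Met+Hcy replicate 3. This test does not cover the wider spread of the fit with all 12 libraries.

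The 9 genes and the lists were chosen with earlier results of these data known. From the lists, up to 3 genes a direction are named that passed with an absolute log2 fold change over 1 and at least 5 CPM in one group, or the gene with the largest change where none did. Not every gene that met this rule is named. Other genes are named where the number that passed was small, and these were chosen after their values were seen. In HEK293T cells they were GCLM, TALDO1, GSR, ALDH3A1, NFE2L3 and SQSTM1. They were also TXNIP in the difference between the responses, and NFE2L1, SQSTM1 and BACH1 between the lines. ASNS, of a list in which most genes passed in HEK293T cells, was likewise chosen after its value was seen. Likeness was measured by Pearson correlation of log2 CPM (prior count 2) among genes with a mean over 2. No batch is given in the sources used here, so none was tested.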

Additional observations from a re-analysis of the deposited data

How the results depend on the processing

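The calls in HEK293T cells depended on the spread estimated from the other libraries. None of the 9 genes passed with all 12 libraries, 2 with DESeq2 (both lower), 5 in edgeR on the HEK293T libraries alone (1 higher, 4 lower), 3 with the GC and length trend removed (KEAP1, TXN and ME1) and 4 when R1 −Met+Hcy replicate 3 was also left out (PRDX1 too). Leaving out 1 library gave 0 to 5, with 1 (ME1) without R1 +Met replicate 2 and 5 without R1 −Met+Hcy replicate 3. Over the 22 alternatives the adjusted p of these genes in HEK293T cells ran from 5.35e-05 to 0.443 for KEAP1, 0.000223 to 0.398 for TXN, 0.000273 to 0.221 for ME1, 0.00860 to 0.378 for PRDX1 and 0.0168 to 0.793 for HMOX1. In R1 cells the count was 0 under every alternative run, leaving out 1 library included (0 to 0). For the difference between the responses it was 0 with each library left out, 1 with the trend removed and 2 when R1 −Met+Hcy replicate 3 was also left out. R1 against HEK293T gave 4 in +Met (3 to 5 with 1 library left out). In −Met+Hcy it gave 3 (2 to 4), against 1 (NQO1) on the libraries of the comparison alone and 5 with the trend removed, with or without R1 −Met+Hcy replicate 3 (NFE2L2 and NQO1 higher, KEAP1, HMOX1 and ME1 lower). Only R1 −Met+Hcy replicate 3 gave the highest of these ranges. No called value changed sign. Shares of all genes were counted only for the fit of all 12 libraries and the fit without R1 −Met+Hcy replicate 3. The counts under the other alternatives therefore have no background and cannot be read as particular to the 9 genes.

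Deviations of libraries with the same replicate number did not go together in 1 direction between groups. Their r over genes ran from −0.50 to 0.48, the highest for replicate 3 of the 2 HEK293T groups. Whether such libraries were paired cannot be settled from these values, and the numbers are used here as names. With the replicate block the counts were 0, 0 and 0 for the medium responses and their difference, 3 in +Met, where TXN was lost (adjusted p 0.0504), and 2 in −Met+Hcy, where KEAP1 was lost.

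Limits: 3 libraries per group, R1 as a single clone, and 1 time point bound what these values show. NQO1 in HEK293T cells rests on 90 to 142 counts per library. SRXN1 has 18 counts in R1 −Met+Hcy replicate 3, and its SE in HEK293T cells was 0.57 with that library and 0.17 without it. Transcript levels do not measure NRF2 protein or its activity.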
